A study of Homo sapiens with 12 samples.

Results

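A set of 10 rows of the deposited count table was followed through a 45 minute arsenite stress: 8 immediate-early genes (JUN, FOS, FOSB, EGR1, KLF6, DUSP1, IER2 and IER3) and 2 non-coding rows annotated on the other strand of IER2 and IER3, which are ENSG00000267598 and IER3-AS1. They were taken by name and are 10 of 61255 rows. The cells were Huh-7.5, an established human hepatocellular carcinoma line, engineered to express the peroxidase APEX2. The 3 lines carried the genotypes APEX-NES, APEX-NLS and APEX-G3BP1, where NES usually stands for an export signal of the nucleus and NLS for an import signal, and G3BP1 is a scaffold of stress granules. Libraries of each line came from cells given sodium arsenite at 0.5 mM for 45 minutes and from mock-treated cells, with 2 libraries per line and treatment and 12 in all. No line without APEX2 was among the samples, so every group carries the enzyme. The promoter behind each construct and whether a line is 1 clone are not given in the sources used here. Nothing in the labels says that replicates came from separate cultures, so p-values measure the spread between these libraries, which may be technical.

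Immediate-early genes are transcribed within minutes of a stimulus, from factors already present in the cell, and their transcripts are short-lived. JUN, FOS and FOSB encode subunits of the AP-1 transcription factor, EGR1 and KLF6 encode zinc finger transcription factors, and DUSP1 encodes a phosphatase that inactivates MAP kinases. IER2 encodes a nuclear regulator of transcription and IER3 a regulator of cell survival. Arsenite reacts with thiols, causes oxidative stress and activates stress kinases and is a classical inducer of this class of genes.

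The best counted of the 10 rows was ENSG00000267598, so the stretch it shares with IER2 is shown first. IER2 lies on the plus strand of chromosome 19 at chr19:13150415-13154908 (GENCODE release 29, GRCh38). ENSG00000267598, annotated there as an antisense gene, lies on the minus strand at chr19:13153071-13154193. All 946 of its exonic bases lie opposite to exons of IER2, and 492 of them lie opposite to the IER2 coding sequence at chr19:13153187-13153855. One exon of the antisense row, at chr19:13153507-13153712, falls wholly inside that coding sequence. It is printed here in both directions, 5′ to 3′, from the GENCODE transcripts. Capitals mark the 148 bases that are exonic in both annotated transcripts of the antisense row.
ENSG00000267598: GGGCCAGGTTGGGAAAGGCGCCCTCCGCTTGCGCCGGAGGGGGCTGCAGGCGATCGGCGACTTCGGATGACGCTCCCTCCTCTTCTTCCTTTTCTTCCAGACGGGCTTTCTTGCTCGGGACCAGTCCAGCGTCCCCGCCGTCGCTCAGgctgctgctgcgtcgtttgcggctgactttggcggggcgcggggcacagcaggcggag
IER2: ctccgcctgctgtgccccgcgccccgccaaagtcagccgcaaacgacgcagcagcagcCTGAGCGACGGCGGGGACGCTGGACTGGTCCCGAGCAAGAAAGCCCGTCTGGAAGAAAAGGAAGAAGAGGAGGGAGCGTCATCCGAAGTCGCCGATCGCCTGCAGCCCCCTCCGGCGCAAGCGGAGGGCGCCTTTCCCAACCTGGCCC
The sequences are exact reverse complements of each other over 206 bases, so a read from this stretch can be given to one row or the other only by its strand. The libraries were made with a kit that keeps the strand of the RNA. Which strand the counting assigned to a gene is not given in the sources used here, and the name of a row below therefore denotes the row, not the transcript.

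The 12 libraries held 1090308 to 1461067 counts, and no difference in total between mock and arsenite was detectable (p = 0.119, two-sided exact permutation test). A floor of 3 counts, or 2.02 to 2.81 CPM depending on the library, was used as the lowest readable level, for counting error only. CPM are counts scaled to a common library total, with TMM factors. Row names and strand stood in an unusual relation across the table. The GAPDH row had 5 to 40 counts, against 12070 to 22188 in ENSG00000269968, annotated on the other strand. The FTH1 row had 11 to 34 counts, against 11497 to 18070 in BEST1 on the other strand. A low count in a row named for a gene therefore need not mean that its RNA was scarce. Nor does a rise in a row show which strand's RNA rose, since the counting strand is not given. The reason was not tested. Pairs of a coding gene and a non-coding row that share exonic bases on opposite strands and held at least 120 counts numbered 2804. In 1988 of them, or 70.9%, the non-coding row held more counts. In 292 pairs the non-coding row lies wholly opposite to exons of the coding gene, as with IER2. Of these, 83.9% had more counts in the non-coding row, with a median share of 96.0%. The IER2 pair stood at 98.1% over all libraries, and 101 of the 292 pairs were above it. Of 12 hepatocyte marker rows 11 had a count in some library, with a summed level of 152 to 314 CPM in mock and 226 to 346 CPM in arsenite libraries. APOH was at 0 throughout, and APOA2 and TTR had at most 12 and 1 counts. Of 6 rows for blood, fibroblast and endothelial cells, summed levels were 23.0 to 33.1 CPM in mock and 14.6 to 24.7 CPM in arsenite libraries. VWF was at 0 among these, COL1A1 and COL1A2 had at most 1 and 2 counts, and CD68 had 12 to 30 counts. In mock libraries CD68, at a mean of 20.6 CPM, was above every hepatocyte row but APOB (85.0) and AFP (30.9). ALB stood at 15.6 CPM in mock and 18.5 CPM in arsenite libraries, where CD68 was at 13.5 CPM. The sums cover 12 and 6 rows and are no check of the cell type. The part of these rows in the results below was not tested. The G3BP1 row had 1 to 23 counts and gave no check of the genotype labels.

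The row opposite to IER2 was 3.71-fold higher after arsenite, as a ratio of mean CPM. ENSG00000267598 had 222 and 190 counts in NES mock, 210 and 205 in NLS mock, and 202 and 203 in G3BP1 mock libraries. After arsenite it had 799 and 821 counts in NES, 820 and 971 in NLS libraries, with 674 and 738 in those of G3BP1. Every arsenite library lay above every mock library. The share of all rows without such overlap is not given here, so its absence, here and below, does not set a row apart. The row TALAM1, outside the members, also showed no overlap, at a log2 fold change of only 0.23. The level went from 164 ± 17.8 CPM to 608 ± 58.8 CPM (SD, n = 6 each). The fitted average effect was a log2 fold change of 1.90 (SE 0.0586, edgeR quasi-likelihood adjusted p = 1.45e-53).

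The row named IER2 gave far fewer counts than the opposite row, and it too rose. The row had 5 and 1 counts in NES mock, 2 and 6 in NLS mock, and 3 and 3 in G3BP1 mock libraries. After arsenite it had 20 and 14 counts in NES, 24 and 21 in NLS libraries, with 12 and 9 in those of G3BP1. Again the treatments did not overlap, with the 2 lowest arsenite values in the G3BP1 line. The level rose from 2.63 ± 1.34 CPM to 12.4 ± 3.69 CPM (SD, n = 6 each), and its log2 fold change was 2.22 with SE 0.324 (adjusted p = 1.00e-08, edgeR). Per kilobase of exon, the IER2 row stood at 0.857 ± 0.438 CPM per kb in mock and 4.05 ± 1.20 in arsenite libraries. The opposite row stood at 173 ± 18.8 and 643 ± 62.2 CPM per kb.

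How the counts of this pair divide between the strands is a value of its own in each library. The IER2 row took between 0.524% and 2.84% of the pair's counts in mock libraries and between 1.20% and 2.84% in arsenite libraries. The 2 ranges overlap almost completely. In the mock library with the smallest share, NES replicate 2, this was 1 of 191 counts, and the exact (Clopper-Pearson) 95% interval of the share in the opposite row was 97.1% to 99.99%. The opposite row held 98.4 ± 0.841% of the counts in mock and 98.0 ± 0.587% in arsenite libraries (SD, n = 6 each). The difference of −0.433 percentage points was smaller than the spread between libraries (two-sided exact permutation test, p = 0.318). Within a line, 2 against 2 libraries allow no p below 0.333. The NES, NLS and G3BP1 lines gave differences of −0.696, −0.587 and −0.0172 points. No shift between strands was therefore detectable at these counts. With both rows added up and tested as 1 row, the log2 fold change was 1.91 with SE 0.0585 (adjusted p = 4.56e-54, edgeR).

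**Figure D1:**
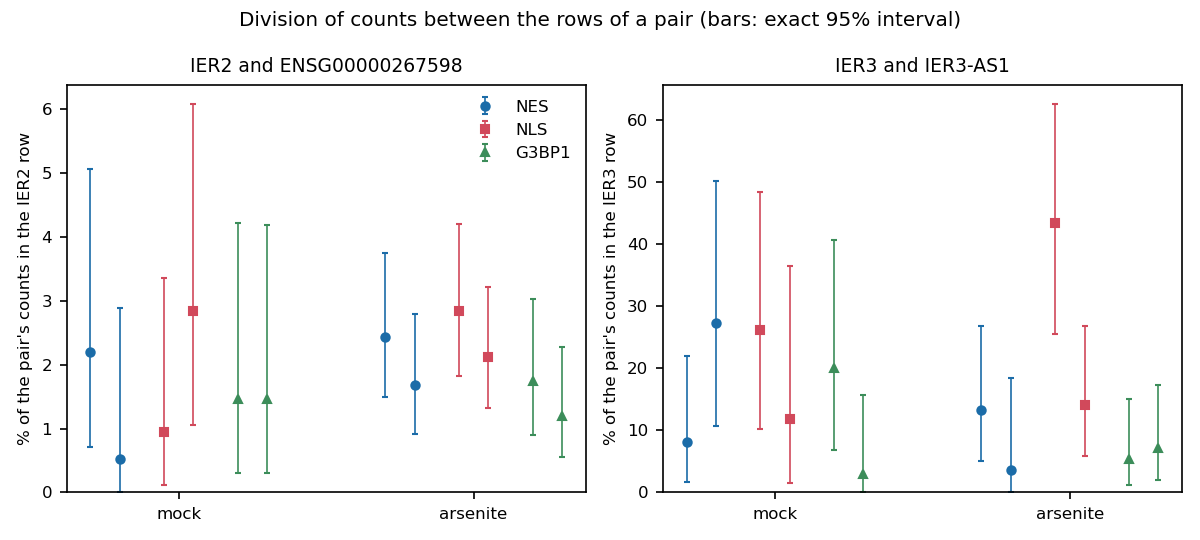
Percent of a pair's counts that fell in the row with the gene's name, for IER2 with ENSG00000267598 (left) and IER3 with IER3-AS1 (right), in mock and arsenite libraries of each line, with exact 95% intervals for counting error. The IER2 row stayed between 0.524% and 2.84% in all 12 libraries, whereas the IER3 row varied between 3.03% and 43.3%.

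IER3 and IER3-AS1 make up the other pair, on chromosome 6. IER3 lies on the minus strand at chr6:30743199-30744554 and IER3-AS1 on the plus strand at chr6:30742929-30743592, again in GENCODE release 29. The shared stretch holds 359 of the 527 exonic bases of IER3-AS1 and lies in the 3′ untranslated region of IER3. IER3-AS1 had 34 and 16 counts in NES mock, 17 and 15 in NLS mock, and 20 and 32 in G3BP1 mock libraries. After arsenite it had 39 and 27 counts in NES, 17 and 43 in NLS libraries, with 52 and 52 in those of G3BP1. Both G3BP1 arsenite libraries were high, while replicate 1 of NLS arsenite stayed at the mock level, so the treatments overlapped. On average the row rose from 17.97 ± 7.27 to 29.2 ± 11.4 CPM (SD, n = 6 each), and its log2 fold change was 0.69 with SE 0.172 (adjusted p = 0.000612, edgeR). This is a smaller change than that of ENSG00000267598, but the difference between the 2 rows was not tested.

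IER3 had 1 to 6 counts in mock and 1 to 13 counts in arsenite libraries, with medians of 4 and 5. Its highest value, 13, and the lowest share of the opposite row, 56.7%, both came from replicate 1 of NLS arsenite. The level was 3.04 ± 1.73 CPM in mock and 4.15 ± 2.97 CPM in arsenite libraries (SD, n = 6 each), and the row was not called (log2 fold change 0.45 with SE 0.387, adjusted p = 0.645 by edgeR in the fit without a count filter). IER3-AS1 held 84.0 ± 9.93% of the pair's counts in mock and 85.5 ± 14.8% in arsenite libraries (SD, n = 6 each). The difference of 1.57 points was far inside the spread (two-sided exact permutation test, p = 0.851). Leaving out replicate 1 of NLS arsenite moved it to 7.34 points, with an exact permutation p of 0.167. Added up, the pair rose by 0.67 on the log2 scale with SE 0.157 (adjusted p = 0.000288, edgeR).

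Among the AP-1 subunits, the JUN row rose and the FOS and FOSB rows gave too few counts to read. As with the GAPDH row, few counts here need not mean that the RNA was scarce. JUN (chr1:58780788-58784327, minus strand) encodes the subunit that stress kinases phosphorylate, and it acts on its own promoter. It had 2 and 0 counts in NES mock, 1 and 5 in NLS mock, and 3 and 1 in G3BP1 mock libraries. After arsenite there were 7 and 11 counts in NES, 10 and 18 in NLS libraries, with 15 and 17 in those of G3BP1. All 6 arsenite libraries lay above all 6 mock libraries. The rise was from 1.60 ± 1.39 CPM to 9.90 ± 3.30 CPM (SD, n = 6 each), and its log2 fold change was 2.54 with SE 0.403 (adjusted p = 1.06e-07, edgeR). The mock mean is below the 3-count floor, so the size of the fold rests on few counts. The summed counts of 12 and 78 give a ratio of 6.20, with an exact 95% counting interval from 3.36 to 12.5.

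FOS (chr14:75278774-75282230, plus strand), the usual partner of JUN, had 0 counts in 5 mock libraries and 1 in the sixth. Its arsenite libraries had 0, 1, 1, 2, 0 and 1 counts. Both treatments were at or under the floor of 3 counts, so no fold is given. FOSB (chr19:45467995-45475179, plus strand), a relative of FOS, had 1 to 5 counts in mock and 0 to 4 in arsenite libraries, or 17 and 11 counts in all. It was the only one of the 10 rows besides KLF6 with a fitted change below 0, and it was not called (log2 fold change −0.68 with SE 0.551, adjusted p = 0.607 by edgeR without a count filter). In GENCODE release 29 neither gene, nor JUN, EGR1, KLF6 or DUSP1, has a row of the table with exons on the other strand of its own exons. Of the 61255 rows 57051 were matched to that release, and the others could not be searched. The second strand was thus read only for IER2 and IER3.

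Of the zinc finger genes, EGR1 was called higher without a count filter and KLF6 was not called. EGR1 (chr5:138465490-138469315, plus strand), a target of MAP kinase signalling through serum response factor, had 0 and 0 counts in NES mock, 3 and 2 in NLS mock, and 0 and 3 in G3BP1 mock libraries. After arsenite it had 6 and 8 counts in NES, 1 and 8 in NLS libraries, with 4 and 5 in those of G3BP1. Apart from replicate 1 of NLS arsenite, every arsenite library had more counts than every mock library. Its level went from 1.07 ± 1.24 to 4.06 ± 2.06 CPM (SD, n = 6 each). The row did not reach the count filter; without a filter it was called higher, with a log2 fold change of 1.83 with SE 0.497 (adjusted p = 0.00302, edgeR). By line the row was called in NES alone (edgeR adjusted p = 0.000847), where both mock libraries were at 0. The values of 0.71 in NLS and 1.32 in G3BP1 were not called, and the difference among lines did not pass the test (edgeR adjusted p = 0.924 without a filter). DESeq2 gave an average of 1.997 and did not call it (DESeq2 adjusted p = 0.0625). The summed counts, 8 and 32, give a ratio of 3.82 with an exact 95% counting interval from 1.72 to 9.59.

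KLF6 (chr10:3775996-3785281, minus strand), a Krüppel-like factor, was the best counted of the coding members, and it was not called. It had 11 and 17 counts in NES mock, 29 and 30 in NLS mock, and 7 and 10 in G3BP1 mock libraries. After arsenite it had 14 and 14 counts in NES, 17 and 27 in NLS libraries, with 16 and 17 in those of G3BP1. In CPM the 2 NLS mock libraries were the highest of the 12, and the 3 lowest were both G3BP1 mock libraries and replicate 1 of NES mock, so the treatments overlapped. Mean levels of 13.4 ± 7.03 and 13.1 ± 2.77 CPM (SD, n = 6 each) gave a log2 fold change of −0.04 with SE 0.212 (adjusted p = 0.907, edgeR). The NES, NLS and G3BP1 lines gave effects of 0.06, −0.51 and 0.76, none of them called, and the test of a difference among lines did not pass either (edgeR adjusted p = 0.596).

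DUSP1 (chr5:172768090-172771195, minus strand) is the feedback phosphatase of the group. Its row had 0 counts in 4 mock libraries and 1 count in NLS replicate 2 and in G3BP1 replicate 2. After arsenite there were 8 and 1 counts in NES, 6 and 5 in NLS libraries, with 3 and 2 in those of G3BP1. The arsenite libraries were thus mostly higher, with NES replicate 2 inside the mock range. The row did not reach the count filter. Without a filter it was called higher (log2 fold change 3.16 with SE 0.710, adjusted p = 0.000169 by edgeR). Among single lines the call was in NES alone (5.20, edgeR adjusted p = 0.0227), where both mock libraries were at 0. Values of 3.06 in NLS and 1.91 in G3BP1 were not called (edgeR adjusted p 0.105 and 0.747). From 2 counts in mock and 25 in arsenite libraries the ratio was 11.9, with an exact 95% counting interval from 2.97 to 104.

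**Figure D2:**
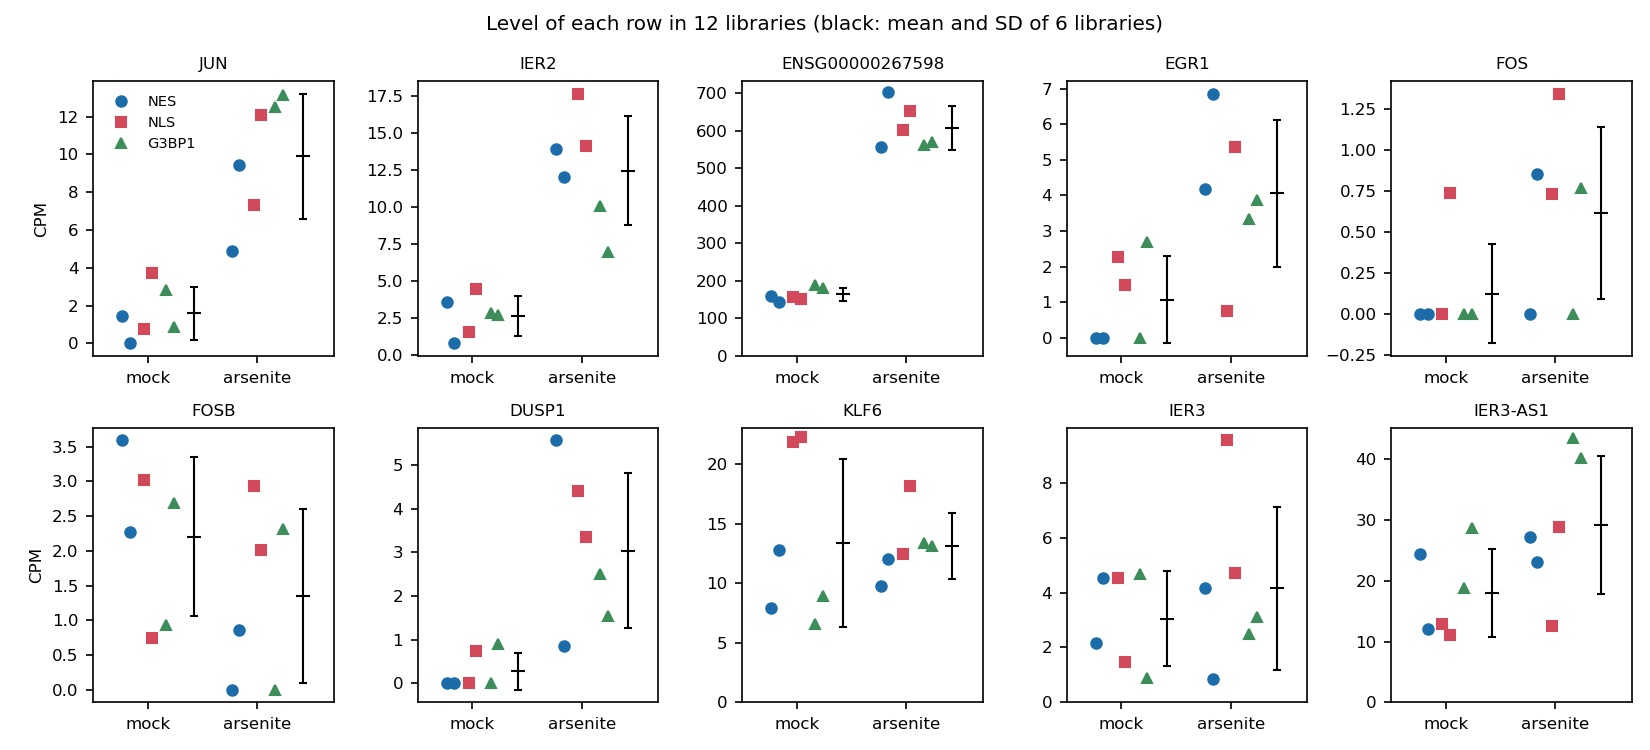
Level of each of the 10 rows in CPM (linear axis, scale differing between panels) in the 12 libraries, by treatment and line, with the mean and SD of 6 libraries in black. JUN, IER2 and ENSG00000267598 show no overlap between mock and arsenite libraries, KLF6 is highest in NLS mock, and FOS lies at or under the 3-count floor. The share of all rows without overlap is not given.

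Set against the whole table, 13108 rows passed the count filter and 19.4% of them were called higher and 18.6% lower in the average effect. Of the 10 rows 5 passed, and 4 of these were called higher: ENSG00000267598, IER2, JUN and IER3-AS1. JUN and IER2 reached 10 counts in arsenite libraries alone, so the filter kept them through the treatment in which they were high, and the count of 4 is given as an account and supports nothing by itself. In the fit without a filter, 6.80% of 38431 rows were called higher. There 6 of the 10 rows were called higher and 0 lower, with a median log2 fold change of 1.75 against −0.0012 over all rows. The members were chosen with earlier results of these data known, so this too is an account. ENSG00000267598 and IER2 among them lie on opposite strands of the same locus.

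The rows called in the average effect had positive values in each of the 3 lines. In NES, ENSG00000267598, JUN and IER2 were called higher, against 10.9% of all tested rows. The same 3 were called higher in NLS, where the background was 9.67%. In G3BP1, ENSG00000267598, JUN and IER3-AS1 were called higher and 9.22% of all rows were. The log2 fold change of ENSG00000267598 in NES and NLS was 2.05 (SE 0.0900) and 2.02 (SE 0.0890), and that in G3BP1 was 1.61 (SE 0.0923). Its level was 186 ± 5.21 CPM in G3BP1 mock libraries, against 151 ± 11.2 in NES and 155 ± 4.5 in NLS mock libraries. After arsenite the order was turned, with 567 ± 5.02 CPM in G3BP1, 630 ± 104 in NES and 628 ± 35.5 in NLS libraries (SD, n = 2 each). The smaller effect in G3BP1 did not pass the test of a difference among lines once adjusted over all rows (edgeR adjusted p = 0.222). That test called 0.183% of all rows and 0 of the members, and DESeq2 also called 0 members. In edgeR, ENSG00000267598 and KLF6 had an unadjusted p under 0.05 in the filtered fit, and EGR1 likewise without a filter. The share of all rows under that unadjusted threshold is not given here, so these values are not read as differences. Without replicate 1 of NES arsenite the edgeR adjusted p of ENSG00000267598 was 0.0384, and it lay between 0.164 and 0.560 without each of the other libraries.

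JUN rose by a log2 fold change of 3.08 (SE 0.861) in NES, 2.08 (SE 0.625) in NLS and 2.75 (SE 0.670) in G3BP1, with edgeR adjusted p-values of 0.00422, 0.0102 and 0.00115. IER2 rose by 2.52 (SE 0.566) in NES and 2.37 (SE 0.503) in NLS, and its value of 1.58 (SE 0.637) in G3BP1 was not called (edgeR adjusted p = 0.0729). IER3-AS1 rose by 0.81 (SE 0.263) in G3BP1, and its values of 0.81 in NLS and 0.46 in NES were not called. No difference among lines was called for these 3 rows (edgeR adjusted p between 0.928 and 0.946). These line-specific values rest on 2 libraries a group and moved when 1 was left out. For JUN in NES, leaving out replicate 2 of mock or of arsenite ended the call, with values of 2.22 and 2.59 (edgeR adjusted p 0.100 and 0.0932). Without replicate 1 of NES mock the value was 6.18, fitted against a mock library at 0. For JUN in NLS, the call was lost without replicate 1 of mock (1.37) or replicate 2 of arsenite (1.67), with edgeR adjusted p 0.218 and 0.197, and the value was 3.53 without replicate 2 of mock. For JUN in G3BP1 the call was lost without replicate 2 of mock (2.17, edgeR adjusted p = 0.0571). IER2 in NES was 3.96 without replicate 1 of mock and was not called by DESeq2 (DESeq2 adjusted p = 0.0506). IER3-AS1 lost its call in G3BP1 without replicate 1 of mock, where its value was 0.53, or either arsenite library (edgeR adjusted p between 0.0558 and 0.340), without a count filter (0.0654) and with DESeq2 (0.378). In NLS its value was 1.27 without replicate 1 of arsenite, and called (edgeR adjusted p = 0.00592), and 0.06 without replicate 2 of arsenite. In NES it was 1.08 without replicate 1 of mock, and called (edgeR adjusted p = 0.0467), and 0.07 without replicate 2 of mock.

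**Figure D3:**
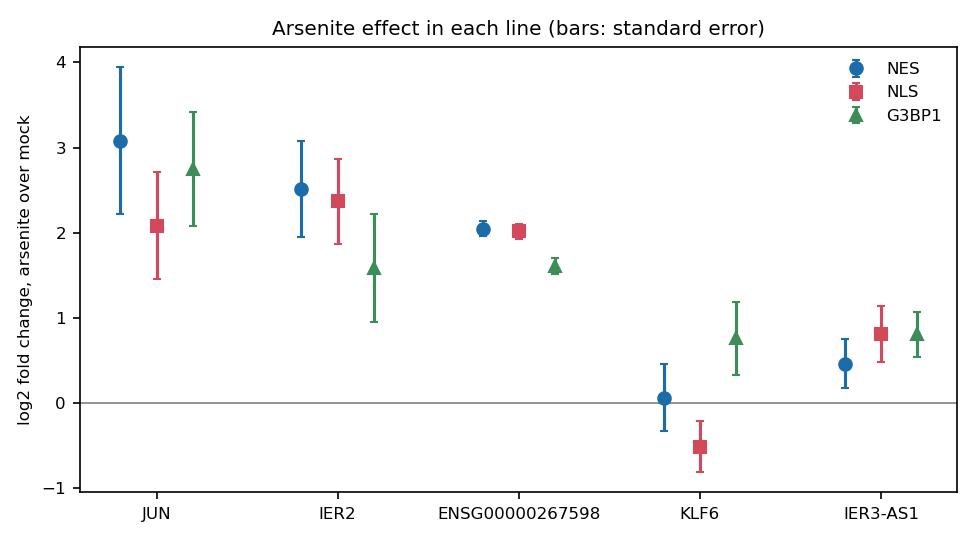
Log2 fold change of arsenite over mock in the NES, NLS and G3BP1 lines, with standard errors, for the 5 rows that passed the count filter. ENSG00000267598 is the most precise, at 2.05, 2.02 and 1.61, while the 3 KLF6 values lie on both sides of 0.

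A list of 40 further immediate-early genes was examined (JUNB, JUND, members of the FOS, EGR, KLF, NR4A, DUSP, GADD45 and BTG families, MCL1, SRF and others). All 40 were in the table, and 28 had under 10 counts in every library. In the fit without a filter 37 had a count, and 29 of these had a log2 fold change above 0, with a median of 0.49. Over all rows, 19189 of 38431 were above 0, with a median of −0.0012. Of these 37, 3 were called higher and 0 lower, a share near the 6.80% of all rows in that fit, so the count does not set the list apart. The 9 that passed the filter held the same 3, which are JUNB and JUND, further AP-1 subunits, and RHOB, a small GTPase. JUNB and RHOB reached 10 counts in arsenite libraries alone, so the filter kept them through the treatment in which they were high. RHOB had 2 to 7 counts in mock and 7 to 23 in arsenite libraries, and rose from 3.34 ± 1.25 to 11.6 ± 3.44 CPM (log2 fold change 1.78 with SE 0.314, adjusted p = 1.42e-06 by edgeR). JUNB had 1 to 8 and 4 to 18 counts and rose from 1.94 ± 2.002 to 6.75 ± 3.21 CPM (log2 fold change 1.77 with SE 0.433, adjusted p = 0.000477 by edgeR). JUND, with 10 to 19 and 21 to 33 counts, rose from 9.83 ± 2.12 to 19.9 ± 3.43 CPM (log2 fold change 1.01 with SE 0.202, adjusted p = 1.85e-05 by edgeR). Treatments did not overlap for JUND and RHOB and overlapped for JUNB. The rows of such well-known immediate-early genes as ATF3, NR4A1 and KLF4 had at most 3 counts in any library. This does not show that the genes were silent, since even the GAPDH row had only 5 to 40 counts.

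A set of 7 rows has exons on the other strand of exons of these 40 genes. Each reached higher counts than the row of the gene it lies opposite to. Of these 7, 6 passed the filter and were called higher in the average effect, where 19.4% of all rows were, and 0 were called lower. DYNLT4 reached 10 counts in arsenite libraries alone and so passed through the treatment in which it was high, and the count is given as an account. The largest average value was that of DYNLT4, opposite to PLK3, a polo-like kinase, over 78 of its 763 exonic bases. DYNLT4 had 2 to 8 counts in mock and 8 to 20 in arsenite libraries and rose from 3.55 ± 1.98 to 10.9 ± 3.19 CPM (log2 fold change 1.65 with SE 0.322, adjusted p = 1.29e-05 by edgeR). By line its value was 2.34 (SE 0.545) in NES and 2.15 (SE 0.551) in NLS, both called, while 0.39 (SE 0.562) in the G3BP1 line was not (edgeR adjusted p = 0.711). The difference among lines did not pass the test (edgeR adjusted p = 0.567). HOOK2, opposite to JUNB, had 23 to 30 counts in mock and 62 to 102 in arsenite libraries. It rose from 21.9 ± 4.45 to 63.0 ± 8.59 CPM (log2 fold change 1.55 with SE 0.136, adjusted p = 6.34e-18 by edgeR), without overlap. It shares 259 of its 5950 exonic bases with JUNB, so the counts of the row need not lie in the shared stretch.

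NR4A1AS, opposite to the nuclear receptor gene NR4A1 over 754 of its 915 exonic bases, gave far more counts than the NR4A1 row. It had 16 to 37 counts in mock and 39 to 71 in arsenite libraries, while NR4A1 had 0 to 3 in any library. NR4A1AS rose from 21.5 ± 4.89 to 38.4 ± 7.26 CPM (log2 fold change 0.82 with SE 0.146, adjusted p = 1.66e-06 by edgeR). ENSG00000283849, opposite to CSRNP1 over 204 of 1818 bases, went from 33.7 ± 6.20 to 54.6 ± 5.44 CPM (log2 fold change 0.70, edgeR adjusted p = 2.54e-06). Treatments overlapped for neither of these 2 rows. With overlap between treatments, BTG1-DT, opposite to the antiproliferative gene BTG1 over 325 of 7589 bases, rose from 69.4 ± 6.18 to 98.9 ± 23.2 CPM (log2 fold change 0.51, edgeR adjusted p = 2.61e-06).

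ENSG00000274021, opposite to the MAP kinase phosphatase gene DUSP6 over 1875 of its 2257 bases, had 90 to 104 counts in NES and NLS mock and 256 and 241 in G3BP1 mock libraries. After arsenite it had 117 to 151 counts in NES and NLS and 250 and 313 in G3BP1 libraries, an average log2 fold change of 0.23 with SE 0.0776 (adjusted p = 0.0131, edgeR). The NES and NLS lines gave 0.47 (SE 0.141) and 0.42 (SE 0.141), both called, and the G3BP1 line gave −0.01 (SE 0.103), which was not (edgeR adjusted p = 0.959). The difference among lines did not pass the test (edgeR adjusted p = 0.344). Every G3BP1 library was above every NES and NLS library, whatever the treatment. The DUSP6 row had 0 to 6 counts. WAKMAR2, opposite to TNFAIP3 over 95 bases, was at 4.52 ± 2.71 CPM in mock and 4.34 ± 1.11 CPM in arsenite libraries and was not called (edgeR adjusted p = 0.990 without a filter).

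**Figure D4:**
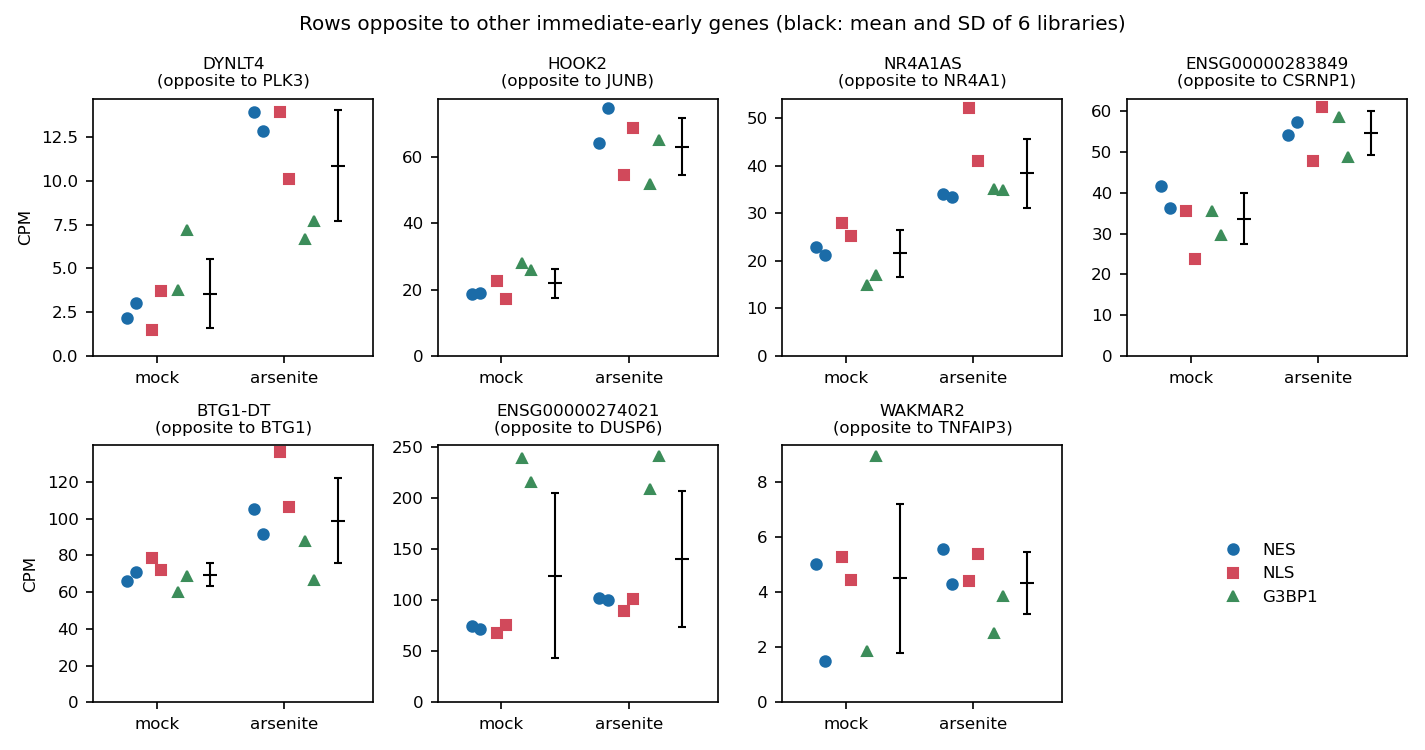
Level in CPM (linear axis from 0, scale differing between panels) of the 7 rows with exons opposite to exons of other immediate-early genes, by treatment and line, with the mean and SD of 6 libraries in black. HOOK2, NR4A1AS and ENSG00000283849 show no overlap between treatments, and ENSG00000274021 is set apart by the G3BP1 line. The share of all rows without overlap is not given.

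The rows that followed ENSG00000267598 most closely over the 12 libraries were sought among 6390 rows with a mean of at least 20 CPM. SMARCC2, a chromatin remodelling subunit whose row lies opposite to MYL6, was first, with a Pearson correlation of log2 CPM of 0.992. ENSG00000259514 (0.990, opposite to ISL2), H4C15 (0.985, a histone gene opposite to H3C15), HOMER2 (0.985) and MIR29B2CHG (0.984) came next. SMARCC2 stood at 35.6 CPM in mock and 128 CPM in arsenite libraries, and its log2 fold change was 1.86 with SE 0.101 (adjusted p = 6.25e-32, edgeR). These correlations describe a shared step between treatments in the same libraries, and 151 of the 6390 rows exceeded 0.9.

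The upstream sequences of the members were searched for response elements, since such elements are what the class is known for. RefSeq starts (GRCh38.p14) were matched for 8 of the 10 rows, all but ENSG00000267598 and IER3, and 250 bases before each start were read on both strands. The motifs were chosen after the counts had been seen. EGR1 and DUSP1 are printed, as members called without a filter whose windows held a CArG box or a cyclic AMP response element. Capitals mark the matches. EGR1 is at chr5:138465229-138465478, plus strand, and DUSP1 at chr5:172771196-172771445, minus strand.
EGR1: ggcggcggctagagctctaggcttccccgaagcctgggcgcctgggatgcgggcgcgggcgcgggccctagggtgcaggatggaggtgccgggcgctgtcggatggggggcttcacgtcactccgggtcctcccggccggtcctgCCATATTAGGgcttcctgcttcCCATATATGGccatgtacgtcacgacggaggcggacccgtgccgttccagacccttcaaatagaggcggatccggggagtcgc
DUSP1: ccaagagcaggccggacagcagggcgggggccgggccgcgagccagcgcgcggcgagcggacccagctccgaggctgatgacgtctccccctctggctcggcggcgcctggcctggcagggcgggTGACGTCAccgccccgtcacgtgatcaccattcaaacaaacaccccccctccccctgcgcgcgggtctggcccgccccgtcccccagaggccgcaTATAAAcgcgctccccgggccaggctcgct
In EGR1 the capitals are 2 CArG boxes, the sites known to bind serum response factor, 105 to 96 and 83 to 74 bases before the start. Of all 27305 upstream windows of this length, 1.14% held a CArG box, and EGR1 was the 1 member that did. In DUSP1 they are TGACGTCA, the cyclic AMP response element, 125 to 118 bases before the start, found in 1.77% of windows and in no other member. The further match in DUSP1 is TATAAA, the TATA box, held by 11.1% of windows and by DUSP1, FOS and FOSB among the members. The AP-1 site TGANTCA (6.60% of windows) was in 0 members and the heat shock element core GAANNTTC (5.85%) in JUN alone. These matches are letters in a window and say nothing of binding in these cells.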

How the data were processed

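Ribosome-depleted total RNA of 12 libraries had been sequenced. The authors deposited raw counts per gene as 1 table; the unit was read from whole-number values with different column totals. The submitters' processing notes name Trim Galore, Subread, featureCounts, edgeR and GRCh38.p13, with no role; the counting strand and annotation are not given in the sources used here. Columns were matched to samples by title, and 4 columns without a sample were not used. Of 61255 rows, 57051 were matched to GENCODE release 29 (GRCh38), used for coordinates, exon lengths and opposite-strand overlaps.

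Counts were tested with edgeR 4.0.16 in R 4.3.3 (TMM, filterByExpr with minimum count 10 and minimum total 15, quasi-likelihood F test, Benjamini-Hochberg over all rows, threshold 0.05). The average effect came from line plus treatment, and line effects and the joint test among lines from 1 mean per group. Rows under the filter were taken from the same fit without it. Standard errors were derived from each F value and its estimate. CPM used library totals over all rows times TMM factors. Shares of a pair were compared by exact permutation. The filtered fit was tried on simulated counts of rows that had passed the filter, and the permutation test on constructed values. The fit without a filter was not simulated.

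The members and lists were chosen with earlier results of these data known. All 10 members are named; of the other lists, called rows, at most 10 each; and the 5 rows of most like pattern. WAKMAR2, uncalled genes of a pair and the lowest rows were named after their values were seen. All 6 replicate pairs differed beyond counting noise (chi-square per degree of freedom from 1.11 to 1.39). The alternatives were DESeq2 1.42.0 and its size factors, total-count scaling, other filters, a replicate block, summed pairs and leaving out each library.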

Additional observations from a re-analysis of the deposited data

How the results depend on the processing

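The 4 members called in the average effect were called under all 18 alternatives. The count was 4 under 16 of these and 6 without a filter or with a filter on a mean of 1 CPM, where EGR1 and DUSP1 were added. For ENSG00000267598 the log2 fold change ran from 1.84 to 1.94, for IER2 from 2.01 to 2.37, for JUN from 2.36 to 2.99 and for IER3-AS1 from 0.56 to 0.87. DUSP1 kept its call in the 16 alternatives that gave one, from 2.67 to 3.78, and EGR1 in 16 of 17, failing in DESeq2. The 3 members called in NES became 5 under the same 2 filters and 1 with DESeq2. DESeq2 called 1 member in NLS and 1 in G3BP1, against 3 each (2 in G3BP1 without a filter), in each case ENSG00000267598, and gave no adjusted p in these lines for JUN and IER2. Between 0 and 1 members had an effect differing among lines when single libraries were left out. KLF6, not called anywhere, changed sign to 0.025 with DESeq2 and ranged from −0.15 to 0.13 without single libraries. For the IER3 pair the difference in share ranged from −0.67 to 7.34 points without single libraries; the cause was not tested. With the replicate number as a replicate block, 4 members were called and no call changed. Deviations of same-numbered libraries gave r between −0.0523 and 0.00931 across 6392 rows in the 3 lines. Replicates differed little beyond counting noise (chi-square per degree of freedom from 1.11 to 1.39). These r values therefore cannot tell whether same-numbered libraries are paired. Total-count scaling moved the median log2 fold change of all rows from −0.0122 to −0.0602. FOS, FOSB, IER3, EGR1 and DUSP1 had under 14 counts in every library, which limits the precision of their values; why these rows held few counts was not tested.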
